A study of Mus musculus with 32 samples.

Results

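The livers of 16 female mice, from the 32 mice of both sexes that were sequenced, were compared to ask which hepatic responses to SC-435 depended on Cyp2c70 genotype and which were common to both genotypes. All libraries labelled female were taken. They came from C57BL/6 mice killed at 12 weeks of age, in 4 groups of 4 mice: wild type (WT) on chow, WT on SC-435, Cyp2c70 knockout (KO) on chow and Cyp2c70 KO on SC-435. SC-435 was mixed into the diet at 0.006%, about 11 mg/kg/day. The labels place the switch to this diet 3 weeks after weaning. The study's own scheme has it at weaning, at 4 weeks of age, and runs it until 12 weeks. Labels and study thus differ on the length of treatment, which is uncertain here. The chow mice stayed on the same base diet without it. The KO line was made with CRISPR-Cas9 by deletion of an early exon in all cells of the animal, and it descends from a single founder, so every KO mouse carries the same deletion and none comes from a second line. The labels do not say whether mice of a group shared a litter or cage.

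SC-435 blocks the ileal bile acid transporter, through which the intestine returns bile acids to the liver. Bile acids are made from cholesterol in hepatocytes, and a liver that receives fewer of them in portal blood is known to make more through CYP7A1 and to draw on its own cholesterol synthesis. Cyp2c70 is the mouse enzyme that makes the hydrophilic muricholic acids, so mice without it carry a more hydrophobic bile acid pool, and injury of the biliary tree with inflammation is known in such mice.

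The quantity tested was the difference of differences: the log2 change of SC-435 over chow in KO mice minus the same change in WT mice, here called the interaction. Of 54532 genes in the table, 16882 passed a filter on low counts and were tested in 1 edgeR quasi-likelihood fit of the 16 libraries. A gene was called where its Benjamini-Hochberg adjusted p over all genes tested was under 0.05 and its log2 value lay beyond 1 in either direction. Counts of genes that rose or fell are counts of calls, and a single gene is said to have risen or fallen where its adjusted p passed. Values after ± are standard errors on the log2 scale, derived from each estimate and its F statistic in the fit. They rest on the spread within groups over all 16 libraries, 4 mice a group, with information shared between genes. Levels are CPM (a gene's counts scaled to a library of fixed size, after TMM scaling), listed for mice 1 to 4 of a group.

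Library totals lay between 38453252 and 44771350 counts. KO chow replicate 4 stood apart: its mean correlation of log2 CPM with the other 3 mice of its group was 0.983, below its 0.986 with the mice of the other groups, whereas the other KO chow mice gave 0.987 to 0.989 within the group and 0.969 to 0.972 outside it. The main results below are therefore also given without it. The 16 hepatocyte markers summed to 79290 to 148400 CPM over the mice with none at 0, and KO mice on chow were lowest. Cyp2c70 (ENSMUSG00000060613, chr19:40153353-40187333, minus strand) was read at 874, 722, 605 and 713 CPM in WT mice on chow, 448, 425, 482 and 585 CPM in WT mice on SC-435, 157, 182, 163 and 181 CPM in KO mice on chow and 157, 153, 138 and 134 CPM in KO mice on SC-435. All KO mice lay below all WT mice. Reads from the exons outside the deletion are still counted, so this checks the labels only in part. The WT level fell by 0.59 ± 0.12 on the log2 scale with SC-435 (adjusted p = 0.0096), and the interaction was 0.36 ± 0.16 (adjusted p = 0.24).

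The interaction was called for 256 genes, 53 with a higher response in KO mice (0.314% of those tested) and 203 with a lower response (1.2%). Without a limit on fold, 445 genes had an adjusted p under 0.05, and 3355 had an unadjusted p under 0.05. Most of the 256 calls lay close to the threshold, with 70 of them under an adjusted p of 0.02 and 2 under 0.01. Leaving out KO chow replicate 4 raised the counts to 309 higher and 498 lower, and all of the 53 and 203 genes were among them. Leaving out KO SC-435 replicate 2, the other extreme, gave 10 higher and 41 lower. Counts of list members given below without a mouse are to be read against the totals of the same fit, not against 0.314% and 1.2%.

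Within the genotypes, SC-435 changed more genes in KO than in WT females. In KO mice 389 genes rose (2.3%) and 671 fell (3.97%), and in WT mice 117 rose (0.693%) and 80 fell (0.474%). Across all genes tested the SD of the log2 response was 0.639 in KO and 0.437 in WT mice, and the responses of the genotypes, which share no libraries, had a Pearson correlation of 0.34 over genes. A call in 1 genotype alone does not show that the responses differ: 743 genes called in KO mice had neither a WT response nor an interaction under an adjusted p of 0.05, and 59 genes called in WT mice likewise lacked both a KO response and an interaction. Responses called in both genotypes with the same direction and no interaction under 0.05 were termed common, and there were 71 common rises (0.421%) and 34 common falls (0.201%).

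**Figure D1:**
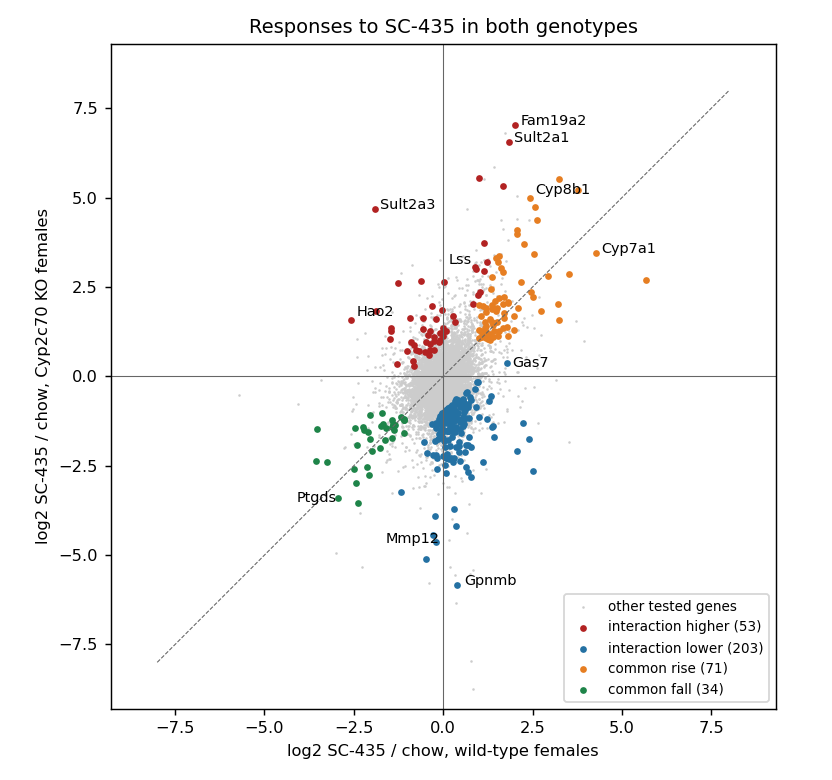
Each point is 1 of the 16882 genes tested, placed by its log2 change of SC-435 over chow in WT females (x axis) and in Cyp2c70 KO females (y axis); the dashed line marks equal responses. The 203 genes with a lower interaction gather below the horizontal line near a WT response of 0, and the common rises and falls lie near the dashed line.

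By the place of the response, 173 of the 256 interaction genes were called in KO mice with a WT adjusted p of at least 0.05, and 145 of these fell. A further 52 had an adjusted p under 0.05 in KO mice alone but a change within 1 on the log2 scale. In 12 genes the genotypes responded in opposite directions, and in 6 they responded in the same direction by different amounts. The response lay in WT mice alone in 3 genes, and in 4 more it did so with a change within 1. The remaining 6 passed in neither genotype.

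Among the 203 genes with a lower interaction, the median response was -1.21 in KO and 0.22 in WT mice on the log2 scale. The median difference of KO from WT mice was 1.41 on chow and -0.023 on SC-435. Among the 53 genes with a higher interaction, the median response was 1.34 in KO and -0.3 in WT mice, with a median KO minus WT difference of -1.28 on chow and 0.56 on SC-435. These differences share their libraries with the interaction, which is their difference by arithmetic, so they describe where the groups lay and are no further test.

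Fam19a2 (ENSMUSG00000044071, chr10:123263996-123741204, plus strand), which encodes a small secreted chemokine-like protein known from the brain, had the smallest interaction adjusted p of all genes. It stood at 6.79, 4.37, 4.92 and 2.53 CPM in WT mice on chow, 17.3, 19.8, 17.7 and 20.8 CPM in WT mice on SC-435, 0.141, 0.101, 0.042 and 0.15 CPM in KO mice on chow and 15, 16.3, 14.1 and 12 CPM in KO mice on SC-435. The KO mice on chow were below every other mouse by more than an order of magnitude, and on SC-435 all KO mice lay just below all WT mice. It rose in both genotypes, by 7.03 ± 0.32 in KO (adjusted p = 2.7e-09) and 2.02 ± 0.22 in WT mice (adjusted p = 1.5e-04). The interaction was 5.01 ± 0.4 (adjusted p = 1.4e-05) and stayed under 0.05 in all 16 fits that left out 1 mouse.

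The sulfotransferases of the Sult2a family attach sulfate to bile acids and steroids, which makes them more soluble. Sult2a1 (ENSMUSG00000078798, chr7:13796246-13837409, minus strand) was read at 18.8, 7.34, 118 and 87.2 CPM in WT mice on chow, 119, 249, 185 and 277 CPM in WT mice on SC-435, 3.68, 2.54, 0.692 and 3.87 CPM in KO mice on chow and 278, 413, 235 and 90.8 CPM in KO mice on SC-435. KO mice on chow lay below every other mouse, and KO mice on SC-435 overlapped with WT mice on SC-435. The response was 6.56 ± 0.84 in KO mice (adjusted p = 1.5e-04), against 1.85 ± 0.67 in WT mice (adjusted p = 0.13), and the interaction was 4.72 ± 0.98 (adjusted p = 0.025). Interactions were also called for Sult2a3 at 6.6 ± 1.68 (adjusted p = 0.048), Sult2a5 at 3.66 ± 0.77 (adjusted p = 0.025) and Sult2a7 at 2.62 ± 0.64 (adjusted p = 0.04). Sult2a2, at 2.75 ± 0.75, did not pass (adjusted p = 0.059). It passed in 3 of the 16 fits without 1 mouse, that without KO chow replicate 4 among them (2.97, adjusted p = 0.026). The Sult2a genes are near-identical copies on chromosome 7, so how reads were divided among them is uncertain. Of the fits without 1 mouse, 11 of 16 kept the call of Sult2a1, 10 that of Sult2a5, 4 that of Sult2a3 and 3 that of Sult2a7. The median interaction of the 23 conjugation genes tested was 0.52, against -0.015 over all genes. Of the 23, these 4 Sult2a genes were called higher, against 0.314% of all genes, and none lower. The count was 8 without KO chow replicate 4, where 309 of all genes were called higher. It was 0 without KO chow replicate 2, WT SC-435 replicate 1 or KO SC-435 replicate 1 or 2.

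**Figure D2:**
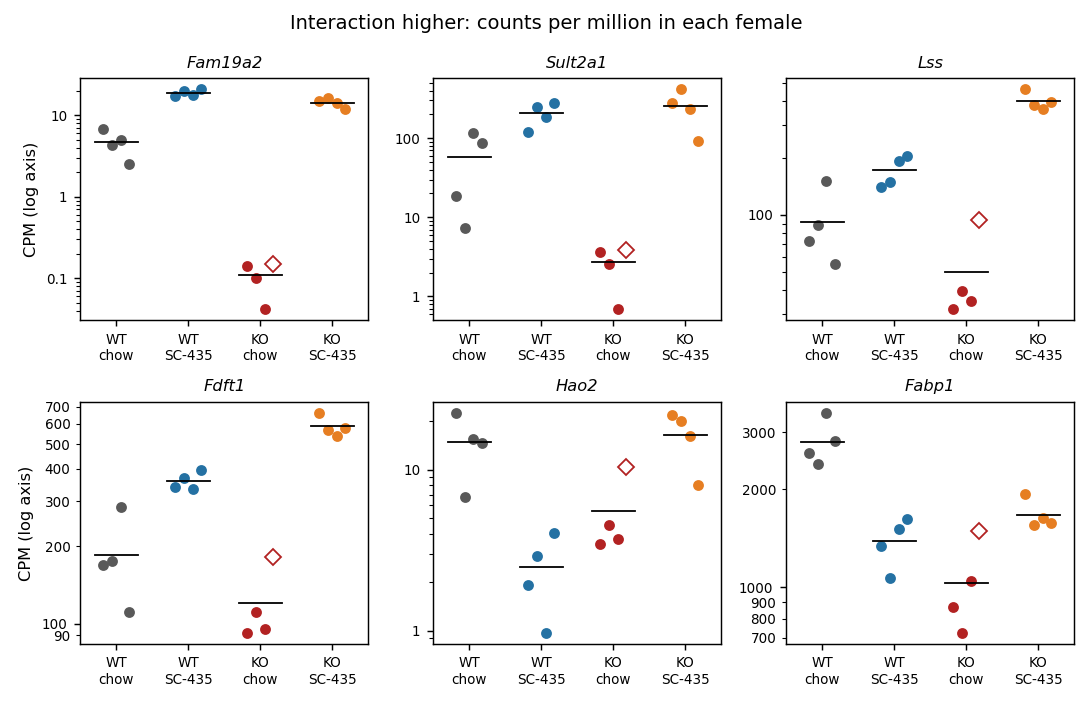
Each panel gives 1 gene with a higher interaction, in CPM on a log axis, with a point for each of the 4 females of a group, a bar at the group mean and an open diamond for KO chow replicate 4. In Fam19a2 and Sult2a1 the KO mice on chow lie below all others, in Lss and Fdft1 they lie at the bottom apart from the diamond, and in Hao2 and Fabp1 the WT groups fall from chow to SC-435.

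Cholesterol biosynthesis was the pathway with the highest median interaction. All 20 of its genes were tested and all 20 had an interaction above 0, with a median of 1.5. Calls numbered 4 (Lss, Mvd, Fdft1 and Acat2), against 0.314% of all genes called higher. The count was 18 without KO chow replicate 4, where the median was 2.06 and 309 of all genes were called higher. It was 0 without WT chow replicate 3, KO chow replicate 2 or 3, or any 1 of replicates 1 to 3 of either SC-435 group. In KO mice 19 of the 20 genes rose with SC-435 (median response 2.57, against 2.3% of all genes that rose), and in WT mice 3 rose (median 0.94, against 0.693%).

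Lss (ENSMUSG00000033105, chr10:76531588-76557138, plus strand), lanosterol synthase, closes the sterol ring system. It was read at 72.7, 88.1, 151 and 55.3 CPM in WT mice on chow, 140.5, 149.9, 193 and 206 CPM in WT mice on SC-435, 31.8, 39.4, 34.8 and 94 CPM in KO mice on chow and 462, 381, 362 and 398 CPM in KO mice on SC-435. KO chow replicate 4 was well above its group and within the range of the WT mice on chow, and the other KO mice on chow lay below all WT mice. The response was 3 ± 0.34 in KO mice (adjusted p = 9.0e-05) and 0.91 ± 0.32 in WT mice (adjusted p = 0.12), with an interaction of 2.1 ± 0.45 (adjusted p = 0.027). Fdft1 (ENSMUSG00000021273, chr14:63145150-63179578, minus strand), squalene synthase, commits farnesyl units to sterols. It stood at 169.7, 174, 284 and 111 CPM in WT mice on chow, 340.4, 370.0, 334 and 398 CPM in WT mice on SC-435, 92, 111, 94.9 and 182 CPM in KO mice on chow and 659.8, 568, 539.6 and 575 CPM in KO mice on SC-435. Its KO response of 2.29 ± 0.24 (adjusted p = 6.3e-05) and WT response of 0.96 ± 0.23 (adjusted p = 0.029) were both rises, and they differed by 1.32 ± 0.33 (adjusted p = 0.044). Acat2, a thiolase at the head of the pathway, also rose in both, with an interaction of 1.2 ± 0.31 (adjusted p = 0.049). Mvd, which makes isopentenyl units, gave 2.16 ± 0.56 just inside the threshold (adjusted p = 0.04997). These calls were fragile: 7 of 16 fits without 1 mouse kept that of Lss, and 3 each kept those of Fdft1 and Acat2. Hsd17b7, a later enzyme of the pathway, had an interaction of 1.72 ± 0.45 that did not pass (adjusted p = 0.053), but it was called without KO chow replicate 4 (2.2, adjusted p = 0.0011) and in 5 of 8 other settings, DESeq2 among them.

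Hmgcs1 and Msmo1 were among the common rises. Hmgcs1 (ENSMUSG00000093930, chr13:119690379-119708260, plus strand), the synthase that supplies HMG-CoA, stood at 392, 537, 961 and 237 CPM in WT mice on chow, 1246, 1538, 1487 and 1670.0 CPM in WT mice on SC-435, 138, 233, 208 and 482 CPM in KO mice on chow and 3028, 2559, 2378 and 2490.0 CPM in KO mice on SC-435. In each genotype every mouse on SC-435 was above every mouse on chow, and the KO mice overlapped with WT mice on chow but lay above all WT mice on SC-435. The responses were 3.3 ± 0.39 in KO (adjusted p = 1.1e-04) and 1.48 ± 0.36 in WT mice (adjusted p = 0.031). Their difference was 1.82 with a 95% interval from 0.74 to 2.9 (adjusted p = 0.065), so a missed threshold does not make the responses alike. Msmo1, a sterol demethylating oxidase, gave an interval of 0.66 to 2.68. Without KO chow replicate 4 the interactions of Hmgcs1 and Msmo1 passed, and both left the common class.

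The promoters of cholesterol genes called for the interaction (Lss, Mvd) and called common (Hmgcs1, Msmo1) are shown because the members of this pathway moved together. They are the RefSeq windows of 300 bases, from 250 before to 50 after the gene start, in GRCm38.p6 and on the strand of the gene. Capitals mark the NF-Y box CCAAT on either strand and, in Hmgcs1, also the sterol regulatory element core TCACCCCAC. The windows are chr10:76531355-76531654 (plus strand) for Lss, chr8:122443373-122443672 (minus) for Mvd, chr13:119690101-119690400 (plus) for Hmgcs1 and chr8:64733529-64733828 (minus) for Msmo1.
Lss: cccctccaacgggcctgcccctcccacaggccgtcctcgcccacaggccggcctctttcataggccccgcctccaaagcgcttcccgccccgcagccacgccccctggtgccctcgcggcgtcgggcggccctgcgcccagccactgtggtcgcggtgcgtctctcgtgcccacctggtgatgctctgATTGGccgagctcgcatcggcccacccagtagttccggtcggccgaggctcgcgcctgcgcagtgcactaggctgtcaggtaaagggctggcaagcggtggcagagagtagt
Mvd: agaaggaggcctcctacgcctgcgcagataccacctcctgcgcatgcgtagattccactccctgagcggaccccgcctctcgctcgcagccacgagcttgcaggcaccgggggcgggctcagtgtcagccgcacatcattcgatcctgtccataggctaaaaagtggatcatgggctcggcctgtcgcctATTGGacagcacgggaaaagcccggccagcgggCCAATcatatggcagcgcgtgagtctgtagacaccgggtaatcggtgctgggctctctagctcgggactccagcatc
Hmgcs1: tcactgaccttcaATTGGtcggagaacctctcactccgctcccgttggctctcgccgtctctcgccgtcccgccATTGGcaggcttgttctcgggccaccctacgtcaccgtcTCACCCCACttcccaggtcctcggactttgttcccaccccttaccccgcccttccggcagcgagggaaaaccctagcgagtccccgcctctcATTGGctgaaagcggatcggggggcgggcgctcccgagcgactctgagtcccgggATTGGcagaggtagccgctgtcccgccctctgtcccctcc
Msmo1: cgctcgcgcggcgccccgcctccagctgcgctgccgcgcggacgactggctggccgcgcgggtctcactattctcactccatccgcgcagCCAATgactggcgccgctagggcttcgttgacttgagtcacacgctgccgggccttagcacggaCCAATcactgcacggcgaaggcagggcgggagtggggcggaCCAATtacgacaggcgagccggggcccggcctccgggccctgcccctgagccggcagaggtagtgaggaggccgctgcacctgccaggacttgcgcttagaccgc
CCAAT was found once in Lss, 2 times in Mvd, 3 times in Msmo1 and 4 times in Hmgcs1, with no overlap between matches. A window was listed for 15 of the 20 cholesterol genes, and 14 of these held CCAAT (93.3%), against 41.1% of the 27025 mouse genes with a window. The element core was in 1 of the 15, Hmgcs1, and in 0.614% of all. Among genes with a window, CCAAT was in 19 of 38 with a higher interaction (50%), 60 of 154 with a lower one (39%), 20 of 48 common rises (41.7%) and 8 of 20 common falls (40%). The other motifs searched on both strands, TCAAGGTCA of LRH-1 (0.466% of all) and GGACTTTCC of NF-kB (0.4% of all), were in 2 and 0 of the 154. A match to these letters is a description of sequence and no evidence of binding.

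In the synthesis of fatty acids and triglycerides 16 of 17 genes were tested, all 16 with an interaction above 0 and a median of 0.79. Gpam, which starts glycerolipid synthesis, was called at 1.18 ± 0.3 (adjusted p = 0.048), and 3 of the 16 fits without 1 mouse kept it. It was the only call of the list, against 0.314% of all genes called higher. Fasn (ENSMUSG00000025153, chr11:120805846-120824547, minus strand), fatty acid synthase, shows how far 1 mouse weighs. It was read at 654, 686, 895 and 708 CPM in WT mice on chow, 682, 859, 1033 and 900.5 CPM in WT mice on SC-435, 296, 401, 332 and 1174 CPM in KO mice on chow and 1580.0, 1688, 1885 and 1375 CPM in KO mice on SC-435. KO chow replicate 4 lay above all WT mice and below the KO mice on SC-435, and the other 3 KO mice on chow lay below every other mouse. The interaction was 1.33 ± 0.46 (adjusted p = 0.12) with this mouse and 2.01 without it (adjusted p = 5.8e-05), and over all the alternatives tried the adjusted p ran from 5.8e-05 to 0.22. Without that mouse 8 of the 16 genes were called higher, as were 309 of all genes.

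Abcg1 (ENSMUSG00000024030, chr17:31057698-31115777, plus strand), which exports cholesterol to lipoproteins and is a target of the oxysterol receptors, moved the other way. It stood at 8.08, 6.69, 8.18 and 8.18 CPM in WT mice on chow, 8.54, 7.2, 7.66 and 7.02 CPM in WT mice on SC-435, 17.4, 21.4, 20.5 and 12.2 CPM in KO mice on chow and 7.6, 8, 9.94 and 9.16 CPM in KO mice on SC-435. All KO mice on chow were above all other mice, and the other 3 groups overlapped. It fell by 1.05 ± 0.15 in KO mice (adjusted p = 2.8e-04), was -0.034 ± 0.15 in WT mice (adjusted p = 0.93), and had an interaction of -1.01 ± 0.21 (adjusted p = 0.025). It was the only call among 13 genes tested of sterol sensing, uptake and efflux, against 1.2% of all genes called lower.

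Opposite responses were led by Hao2 (ENSMUSG00000027870, chr3:98874521-98893239, minus strand), a peroxisomal hydroxy acid oxidase. It was read at 22.4, 6.79, 15.5 and 14.7 CPM in WT mice on chow, 1.93, 2.93, 0.974 and 4.06 CPM in WT mice on SC-435, 3.48, 4.55, 3.71 and 10.3 CPM in KO mice on chow and 21.8, 20.2, 16.2 and 7.98 CPM in KO mice on SC-435. The genotypes overlapped on chow, and on SC-435 all KO mice lay above all WT mice. Within the KO, replicate 4 of each diet lay inside the range of the other diet. The KO response was 1.59 ± 0.44 (adjusted p = 0.018), the WT response -2.58 ± 0.47 (adjusted p = 0.0064) and the interaction 4.17 ± 0.64 (adjusted p = 0.014). Fabp1 (ENSMUSG00000054422, chr6:71199827-71205023, plus strand), the liver fatty acid-binding protein, behaved likewise at a far higher level, with 2581, 2386, 3431 and 2812 CPM in WT mice on chow, 1338, 1065, 1513 and 1617 CPM in WT mice on SC-435, 869, 725, 1044 and 1484 CPM in KO mice on chow and 1929, 1556, 1633 and 1573 CPM in KO mice on SC-435. WT mice on chow were above all others, and the genotypes overlapped on SC-435. Its responses were 0.7 ± 0.19 in KO (adjusted p = 0.015) and -1.02 ± 0.19 in WT mice (adjusted p = 0.0068), with an interaction of 1.72 ± 0.27 (adjusted p = 0.014). Pdilt, a disulfide isomerase-like protein known from the testis, gave 1.51 ± 0.28 (adjusted p = 0.017), and Pcp4l1, a small calmodulin-regulator-like protein, 2.81 ± 0.56 (adjusted p = 0.022). The calls of Hao2, Fabp1 and Pdilt held in all 16 fits without 1 mouse, and that of Pcp4l1 in 13.

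Gas7 and Mbnl3 were among the 3 genes whose response passed in WT mice alone. Gas7 (ENSMUSG00000033066, chr11:67455437-67688990, plus strand), an actin-binding protein, stood at 8.35, 5.92, 6.33 and 5.26 CPM in WT mice on chow, 18.3, 27.6, 16.6 and 26.1 CPM in WT mice on SC-435, 26.2, 31.3, 29.1 and 20.7 CPM in KO mice on chow and 29.9, 41.4, 38.6 and 29 CPM in KO mice on SC-435. WT mice on chow lay below all other mice. It rose by 1.78 ± 0.19 in WT mice (adjusted p = 1.5e-04), the KO response was 0.37 ± 0.18 (adjusted p = 0.16) and the interaction -1.41 ± 0.26 (adjusted p = 0.017). Mbnl3, an RNA-binding protein, gave -1.9 ± 0.41 (adjusted p = 0.026) at a mean of 42.8 counts, below the minimum set for naming, and is named because the class is small.

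Genes that macrophages express stood among the lower interactions, as counted on a list of 21 macrophage markers. All 21 had an interaction below 0 (median -1.24), 10 were called lower and 12 fell in KO mice, while none was called in WT mice. Over all genes 1.2% were called lower and 3.97% fell in KO mice. Their summed level was 1123 to 1881 CPM in KO mice on chow, against 609.9 to 733.6 in WT mice on chow, 616.5 to 732 in WT mice on SC-435 and 600.6 to 878.4 in KO mice on SC-435, and no marker was at 0 in any group. In whole liver, fewer cells of a type and less RNA per cell cannot be told apart. Without KO chow replicate 4 or KO SC-435 replicate 4, 15 of the 21 were called, and without KO SC-435 replicate 1, 2 or 3 the count was 6, 5 and 6.

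Mmp12 (ENSMUSG00000049723, chr9:7344381-7369499, plus strand), macrophage elastase, was read at 0.377, 0.266, 0.226 and 0.393 CPM in WT mice on chow, 0.22, 0.251, 0.3 and 0.254 CPM in WT mice on SC-435, 9.33, 30.6, 8.12 and 8.09 CPM in KO mice on chow and 0.557, 0.668, 0.826 and 0.516 CPM in KO mice on SC-435. All KO mice on chow were at least several times above every other mouse, KO chow replicate 2 furthest, and KO mice on SC-435 stayed above all WT mice. It fell by 4.45 ± 0.41 in KO mice (adjusted p = 2.3e-05), with an interaction of -4.15 ± 0.7 (adjusted p = 0.014). Lyz2 (ENSMUSG00000069516, chr10:117277331-117282321, minus strand), the lysozyme of macrophages and neutrophils, stood at 75, 63.4, 58.6 and 51.8 CPM in WT mice on chow, 63.4, 62.9, 61.8 and 66.3 CPM in WT mice on SC-435, 160.3, 242, 171 and 130.2 CPM in KO mice on chow and 56.5, 50.2, 60.8 and 77.5 CPM in KO mice on SC-435. The KO mice on chow lay above all other mice, and the other groups overlapped. It fell by 1.52 ± 0.17 in KO mice (adjusted p = 7.9e-05), the WT response was 0.032 ± 0.16 (adjusted p = 0.94) and the interaction -1.55 ± 0.23 (adjusted p = 0.014). Cd68, a lysosomal protein of macrophages, gave -1.25 ± 0.21 (adjusted p = 0.014). The calls of these 3 genes held in all 16 fits without 1 mouse.

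Gpnmb (ENSMUSG00000029816, chr6:49036546-49070929, plus strand), a glycoprotein of lipid-laden macrophages, had the lowest interaction of all called genes. It was read at 0.162, 0.121, 0.0753 and 0.123 CPM in WT mice on chow, 0.146, 0.201, 0.125 and 0.162 CPM in WT mice on SC-435, 10, 51.8, 11.4 and 3.05 CPM in KO mice on chow and 0.194, 0.334, 0.373 and 0.423 CPM in KO mice on SC-435. The KO mice on chow varied from 3.05 to 51.8 CPM, all above the other mice. The interaction was -6.24 ± 1.43 (adjusted p = 0.032) and held in 5 of the 16 fits. Others of the 8 lowest interactions were Cpe, carboxypeptidase E, at -4.61 ± 1.12 (adjusted p = 0.041), Ly6d, a surface protein of the Ly6 family, at -4.55 ± 1.15 (adjusted p = 0.047), Cib3, a calcium-binding protein, at -4.02 ± 0.88 (adjusted p = 0.028), and Ntrk2, the receptor of brain-derived neurotrophic factor, at -3.51 ± 0.8 (adjusted p = 0.032). Ubd, a ubiquitin-like protein induced by cytokines, gave -3.39 ± 0.82 (adjusted p = 0.04). Of the 16 fits without 1 mouse, 2 kept the call of Ly6d, 3 each those of Cpe and Ubd, 7 that of Ntrk2 and 8 that of Cib3. In Cpe, KO chow replicate 4 read 1.6 CPM and the other KO mice on chow 26.5 to 46.8 CPM.

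**Figure D3:**
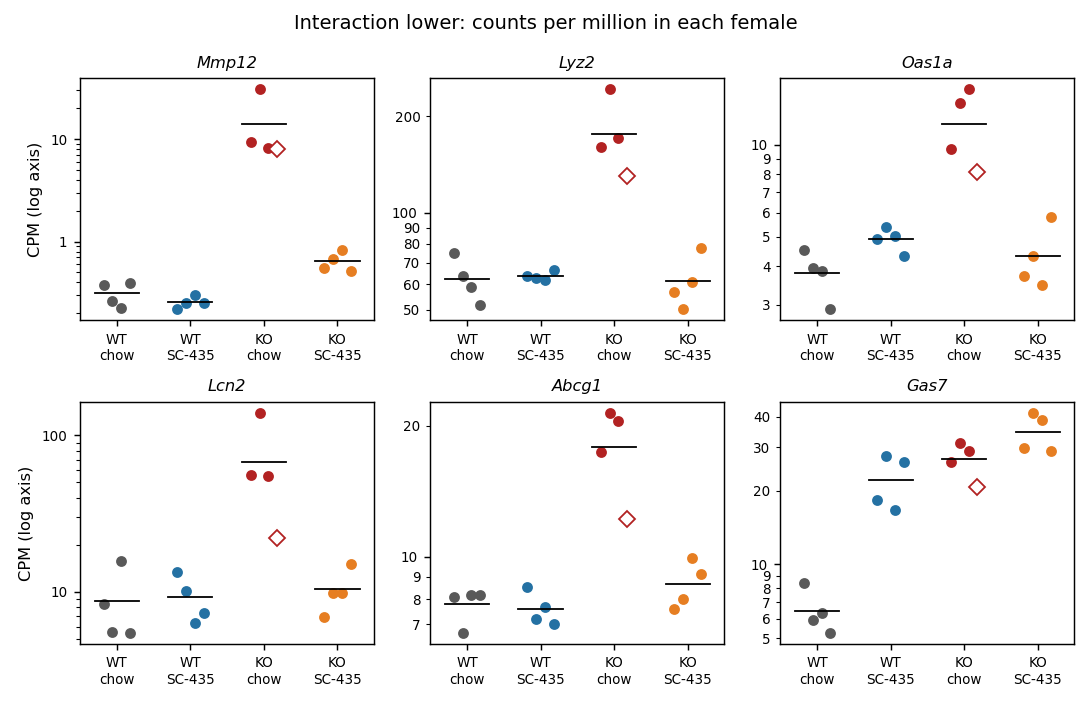
Each panel gives 1 gene with a lower interaction, in CPM on a log axis, with a point for each of the 4 females of a group, a bar at the group mean and an open diamond for KO chow replicate 4. In all panels but Gas7 the KO mice on chow lie above the other 3 groups, and in Gas7 the WT mice on chow lie below the others.

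Genes induced by interferon formed the other large group. All 22 tested had an interaction below 0 (median -1.03). Of these, 9 were called lower, against 1.2% of all genes: Ifit1, Ifit2, Rsad2, Oas1a, Oas1g, Oas2, Mx1, Irf7 and Ifi44. The count depended on single mice, with 12 calls without KO chow replicate 4, 13 without KO SC-435 replicate 4, 4 without KO chow replicate 2, 3 without KO SC-435 replicate 1 and 1 without KO SC-435 replicate 2. Other left-out mice gave 6 to 11. Oas1a (ENSMUSG00000052776, chr5:120896256-120907521, minus strand), which makes the 2-5A messenger of antiviral RNA decay, stood at 4.53, 3.96, 3.87 and 2.9 CPM in WT mice on chow, 4.93, 5.37, 5.04 and 4.32 CPM in WT mice on SC-435, 9.71, 13.7, 15.2 and 8.12 CPM in KO mice on chow and 3.73, 4.32, 3.46 and 5.82 CPM in KO mice on SC-435. KO mice on chow were above all other mice. It fell by 1.43 ± 0.2 in KO mice (adjusted p = 2.8e-04), the WT response was 0.37 ± 0.21 (adjusted p = 0.34) and the interaction -1.8 ± 0.29 (adjusted p = 0.014). Irf7 (ENSMUSG00000025498, chr7:141262706-141266481, minus strand), the factor that amplifies type I interferon, responded in opposite directions, with 39.9, 28.8, 31.4 and 24.8 CPM in WT mice on chow, 47.4, 67.7, 49.8 and 46.9 CPM in WT mice on SC-435, 67, 76.2, 84.2 and 43.7 CPM in KO mice on chow and 43, 41.9, 44.4 and 51 CPM in KO mice on SC-435. KO mice on SC-435 lay within the range of WT mice on SC-435 or just below it. Irf7 fell by 0.59 ± 0.18 in KO mice (adjusted p = 0.029) and rose by 0.76 ± 0.18 in WT mice (adjusted p = 0.025), with an interaction of -1.35 ± 0.26 (adjusted p = 0.018). Of the list, 5 genes were called lower in KO mice, against 3.97% of all genes. None was called in WT mice, where the median response was 0.31. In KO mice the summed macrophage markers given above were also lower on SC-435 than on chow. In WT mice their sums overlapped between the diets, at 609.9 to 733.6 CPM on chow and 616.5 to 732 on SC-435. Their part in the result was not tested.

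Other inflammatory and matrix genes pointed the same way with fewer calls. Of 23 chemokine and cytokine genes, 20 had an interaction below 0, the median was -0.52, and Ccl6, a macrophage chemokine, at -1.82 ± 0.3 (adjusted p = 0.014) and Il1rn, the antagonist of the interleukin-1 receptor, at -2.43 ± 0.51 (adjusted p = 0.025) were called. Over all genes 1.2% were called lower. There were 6 calls without KO chow replicate 4 and 1 without KO chow replicate 2. In KO mice 9 of the 23 fell, against 3.97% of all genes, and in WT mice none did. Ccl2, which attracts monocytes, fell by 1.72 ± 0.31 in KO mice (adjusted p = 0.0013) with an interaction of -0.97 ± 0.45 that did not pass (adjusted p = 0.25). The interactions of Cxcl1 (-1.52 ± 0.6, adjusted p = 0.17), Cxcl10 (-0.87 ± 0.41, adjusted p = 0.25) and Il1b (-1.35 ± 0.47, adjusted p = 0.12) did not pass either. Of the 16 fits without 1 mouse, that of Il1b passed only without KO chow replicate 4 (-1.57, adjusted p = 0.022).

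Of 33 extracellular matrix genes, 30 had an interaction below 0 (median -0.61), 13 fell in KO mice (3.97% of all genes did) and 2 were called lower for the interaction (1.2% of all genes were), Mmp12 and the collagenase Mmp13 (-2.85 ± 0.72, adjusted p = 0.045). This count was 6 without KO chow replicate 4. It was 1 without any 1 WT mouse on chow, KO chow replicate 2 or 3, or WT SC-435 replicate 1. The call of Mmp13 held in 3 of the 16 fits without 1 mouse. It was also lost without WT SC-435 replicate 2, 3 or 4 or KO SC-435 replicate 1, 2 or 3. Col1a1 (ENSMUSG00000001506, chr11:94936224-94953042, plus strand), the main fibrillar collagen, was read at 20.3, 12.1, 13.4 and 10.3 CPM in WT mice on chow, 4.75, 12.1, 8.39 and 10.7 CPM in WT mice on SC-435, 68.3, 103, 133 and 40.5 CPM in KO mice on chow and 25, 23.6, 23.2 and 32.7 CPM in KO mice on SC-435. It fell by 1.72 ± 0.32 in KO mice (adjusted p = 0.0016), the WT value was -0.64 ± 0.33 (adjusted p = 0.29), and the interval of the interaction ran from -2.04 to -0.12 (adjusted p = 0.19). Of the 16 fits without 1 mouse, the interaction of Col1a1 passed only without KO chow replicate 4 (-1.31, adjusted p = 0.042). KO mice on SC-435 remained above all WT mice in this gene. For Timp1 the interval was -4.54 to -0.48, for Acta2 -0.57 to 2.96 and for Tgfb1 -0.53 to 0.11, and none passed. Stellate cell and fibroblast markers summed to 623.5 to 1233 CPM in KO mice on chow and 619.1 to 707.1 in KO mice on SC-435, with none at 0, and their part in the result was not tested. Within that list Hhip, a decoy of hedgehog ligands, was called higher at 1.9 ± 0.33 (adjusted p = 0.015) in all 16 fits without 1 mouse.

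Lcn2 (ENSMUSG00000026822, chr2:32384633-32388252, minus strand), an iron-scavenging acute phase protein, was read at 8.32, 5.53, 15.8 and 5.48 CPM in WT mice on chow, 13.4, 10.2, 6.34 and 7.37 CPM in WT mice on SC-435, 55.5, 139, 54.6 and 22.2 CPM in KO mice on chow and 6.92, 9.84, 9.86 and 15 CPM in KO mice on SC-435. KO mice on chow lay above all other mice, with KO chow replicate 4 nearest to them. It fell by 2.7 ± 0.47 in KO mice (adjusted p = 9.8e-04) with an interaction of -2.79 ± 0.65 (adjusted p = 0.033). Lcn2 was the only call among 20 acute phase genes (median interaction -0.4), against 1.2% of all genes called lower. Without KO chow replicate 4, 1 of the 20 was called higher and 5 lower, against 309 and 498 of all genes. Prom1 (ENSMUSG00000029086, chr5:43993620-44102032, minus strand), a surface protein of bile duct and progenitor cells, stood at 3.72, 2.42, 3.06 and 3.12 CPM in WT mice on chow, 1.44, 1.25, 1.02 and 1.71 CPM in WT mice on SC-435, 48.5, 74.2, 40.5 and 27.7 CPM in KO mice on chow and 4.72, 4.08, 5.49 and 5.94 CPM in KO mice on SC-435. KO mice on chow were far above all other mice, and KO mice on SC-435 stayed above all WT mice. It fell in both genotypes, by 3.24 ± 0.25 in KO (adjusted p = 3.4e-06) and by 1.18 ± 0.27 in WT mice (adjusted p = 0.022), and the difference of -2.06 ± 0.36 passed (adjusted p = 0.016). Of 17 cholangiocyte markers tested it was the only call, against 1.2% of all genes called lower, and the median interaction was -0.2. The list summed to 229.2 to 486.8 CPM in KO mice on chow and 164.1 to 220.8 on SC-435, where 1 marker was at 0. Spp1, which is also on the macrophage list, had the highest counts of the cholangiocyte list, 1030 to 13101 per library, so the 2 sums are not separate. The part of these cells in the result was not tested. Krt19, a duct keratin, gave -0.11 ± 0.34 (adjusted p = 0.89).

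Mup20 and Hao2 were the calls, 1 lower and 1 higher, among 28 sex-biased liver genes. Over all genes 1.2% were called lower and 0.314% higher. Mup20, a urinary protein of males, gave -2.35 ± 0.59 (adjusted p = 0.044). Major urinary protein genes are near-identical copies, so the share of reads given to each is uncertain. Of the 28, 8 were called higher and 2 lower without KO chow replicate 4, against 309 and 498 of all genes. Of 27 drug-metabolising P450 and related genes, 20 had an interaction above 0 (median 0.84). In KO mice 10 rose, against 2.3% of all genes, and none passed the limit on fold for the interaction. Cyp2c50 came close at 0.93 ± 0.23 (adjusted p = 0.045), with 1221, 1220.0, 1275 and 1083 CPM in WT mice on chow, 1470.0, 1523, 1305 and 1267 CPM in WT mice on SC-435, 437, 544, 468 and 888 CPM in KO mice on chow and 1339, 1335, 1269 and 1229 CPM in KO mice on SC-435. The KO mice on chow were lowest, and on SC-435 the genotypes overlapped. Without KO chow replicate 4, 10 of the 27 were called higher and 1 lower, against 309 and 498 of all genes. None was called without any 1 of the other chow mice.

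**Figure D4:**
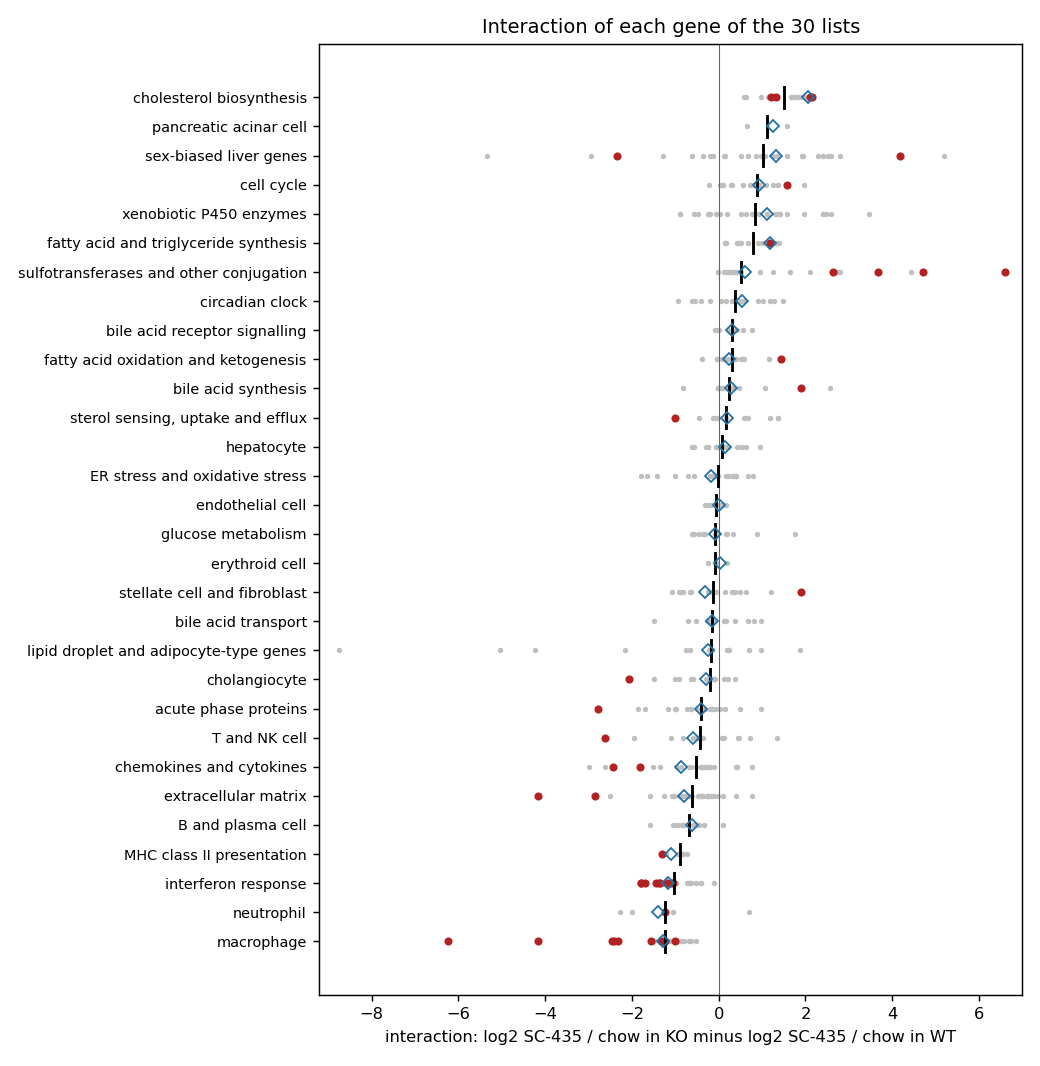
Each row is 1 of 30 gene lists and each point the interaction (log2) of a tested gene, red where called; the black bar is the median of the list and the open diamond its median without KO chow replicate 4. Medians run from 1.5 for cholesterol biosynthesis to -1.24 for macrophage and -1.23 for neutrophil markers, whose order turns without that mouse (-1.29 and -1.39), and the diamond lies further from 0 than the bar in most lists at both ends.

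Cyp7a1, Csad and Cyp8b1 had the largest smaller response of the genotypes among the named common rises. Of 15 bile acid synthesis genes, 2, Cyp7a1 and Cyp8b1, were in the class, against 0.421% of all genes. Cyp7a1 (ENSMUSG00000028240, chr4:6265612-6275633, minus strand), the rate-limiting enzyme of bile acid synthesis, was read at 72.9, 53.6, 70.3 and 14.7 CPM in WT mice on chow, 1216, 1316, 663 and 902 CPM in WT mice on SC-435, 9.09, 25.9, 102 and 110.3 CPM in KO mice on chow and 410.2, 781, 535 and 955 CPM in KO mice on SC-435. In both genotypes every mouse on SC-435 lay above every mouse on chow. It rose by 4.28 ± 0.67 in WT (adjusted p = 0.003) and by 3.44 ± 0.64 in KO mice (adjusted p = 0.0017). The interaction of -0.83 had a wide interval, from -2.59 to 0.93 (adjusted p = 0.62), and the KO mice on chow spread from 9.09 to 110 CPM. Csad (ENSMUSG00000023044, chr15:102176999-102204724, minus strand), which makes the taurine joined to bile acids, stood at 127, 267, 131 and 46 CPM in WT mice on chow, 1077, 1177, 1000.0 and 1069 CPM in WT mice on SC-435, 99.2, 50.8, 80.9 and 90 CPM in KO mice on chow and 598, 538, 607 and 514 CPM in KO mice on SC-435. The diets did not overlap in either genotype, and on SC-435 all WT mice lay above all KO mice. Csad rose by 2.92 ± 0.36 in WT (adjusted p = 3.9e-04) and 2.81 ± 0.36 in KO mice (adjusted p = 1.4e-04), with an interval of the interaction from -1.1 to 0.89.

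Cyp8b1 (ENSMUSG00000050445, chr9:121914356-121916305, minus strand), which directs synthesis to cholic acid, belonged to the common rises only while KO chow replicate 4 was kept. It stood at 306, 296, 186 and 96.2 CPM in WT mice on chow, 1021, 1196, 1298 and 1254 CPM in WT mice on SC-435, 9.24, 2.8, 14.2 and 69 CPM in KO mice on chow and 609.7, 835, 777 and 825 CPM in KO mice on SC-435. KO chow replicate 4 was above its group, and all KO mice on chow lay below all WT mice. The rises were 5 ± 0.72 in KO (adjusted p = 3.0e-04) and 2.43 ± 0.64 in WT mice (adjusted p = 0.04), and the interaction was 2.57 ± 0.87 (adjusted p = 0.11) with an interval from 0.73 to 4.42. Without that mouse the interaction was 4.01 (adjusted p = 5.3e-04). It also passed with all mice kept in the voom fit with quality weights (adjusted p = 0.002). Over the alternatives that gave an adjusted p for this gene, it ran from 0.00053 to 0.2. Among the 15 bile acid synthesis genes, 1 was called higher, against 0.314% of all genes. It was Cyp46a1, the cholesterol hydroxylase best known from brain, at 1.89 ± 0.43 (adjusted p = 0.032). Its call held in 5 of the 16 fits without 1 mouse. The median interaction of the 15 was 0.24, and 12 lay above 0.

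Abcc4 (ENSMUSG00000032849, chr14:118482692-118706219, minus strand), an exporter of bile salts to the blood, was a common rise of like size in both genotypes. It was read at 4.66, 6.4, 5.87 and 5.21 CPM in WT mice on chow, 10.5, 15.1, 10.7 and 14.5 CPM in WT mice on SC-435, 8.46, 10.8, 9.92 and 9.84 CPM in KO mice on chow and 19.8, 23.2, 23.8 and 15.2 CPM in KO mice on SC-435. KO mice were above WT mice on each diet, and the response was 1.07 ± 0.16 in KO (adjusted p = 3.2e-04) and 1.2 ± 0.16 in WT mice (adjusted p = 9.1e-04). The interval of the interaction lay between -0.6 and 0.34. It was the only common gene among 14 bile acid transporters tested, against 0.421% of all genes that were common rises. None of the 14 was called for the interaction, against 0.314% of all genes called higher and 1.2% lower. The uptake carrier Slc10a1 gave 0.81 ± 0.27 (adjusted p = 0.11). Of the 16 fits without 1 mouse, it passed only without KO chow replicate 4 (1.12, adjusted p = 8.1e-04). The canalicular bile salt pump Abcb11 gave -0.21 ± 0.11 (adjusted p = 0.33), with an interval from -0.45 to 0.036.

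**Figure D5:**
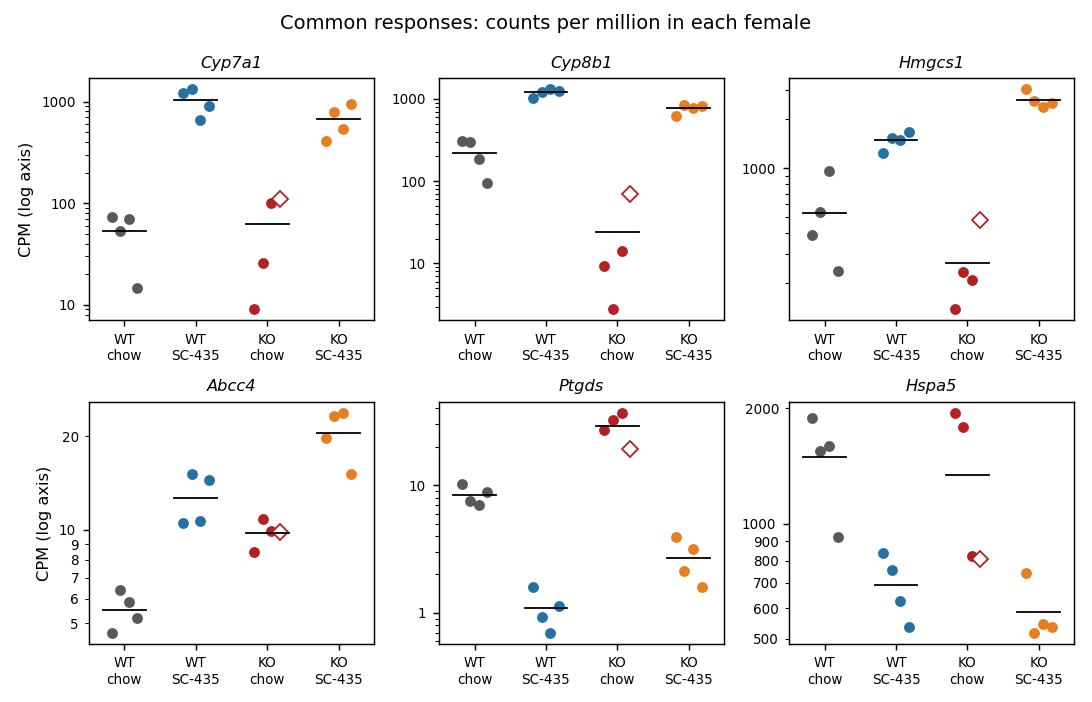
Each panel gives 1 gene of the common class, in CPM on a log axis, with a point for each of the 4 females of a group, a bar at the group mean and an open diamond for KO chow replicate 4. Within each genotype the SC-435 and chow mice are apart in all panels, and in Cyp8b1 all KO mice on chow lie below all WT mice.

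The 95% interval of the interaction lay wholly within 1 log2 unit of 0 for 15 of the 71 common rises and 5 of the 34 common falls, and only for these is a difference of that size outside the interval. For comparison, the median half-width of the interval was 0.47 over all genes tested, 0.94 over the common rises and 1.06 over the common falls. Among the 15 were Ugdh, which makes the UDP-glucuronic acid used in conjugation (-0.48 to 0.34), Fam126a, part of a lipid kinase complex of the plasma membrane (-0.26 to 0.52), and the scavenging chemokine receptor Ackr2 (-0.49 to 0.6), which were picked after their values were seen. Ackr2 stood at 3.48, 3.96, 3.49 and 3.07 CPM in WT mice on chow, 8.9, 13, 11.2 and 12.8 CPM in WT mice on SC-435, 2.29, 2.17, 3.84 and 2.72 CPM in KO mice on chow and 7.02, 10.2, 9.35 and 10.9 CPM in KO mice on SC-435, with no overlap between the diets in either genotype.

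Other common rises with the largest smaller response were Usp50, Nfe2 and the uncharacterised 9130409I23Rik. Nfe2, a transcription factor of blood cells, rose by 4.08 ± 0.51 in KO (adjusted p = 1.4e-04) and 2.08 ± 0.5 in WT mice (adjusted p = 0.028). Its interaction passed in 1 of the 16 fits without 1 mouse, that without KO chow replicate 4. The smaller response of Usp50, a gene of the ubiquitin protease family, was 2.26 ± 0.44 in WT mice (adjusted p = 0.0096), and that of 9130409I23Rik was 2.21 ± 0.3 in KO mice (adjusted p = 1.9e-04). Of the 71 common rises, 60 stayed in the class without that mouse and 10 moved to an interaction under an adjusted p of 0.05. Among these 10 were Asns, Cyp8b1, Elovl3, Gm37138, Hmgcs1, Msmo1, Nat8f5, Nfe2 and Rdh11.

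Ptgds (ENSMUSG00000015090, chr2:25466709-25470046, minus strand), a prostaglandin D synthase and carrier, led the common falls. It was read at 10.3, 7.58, 6.98 and 8.82 CPM in WT mice on chow, 1.58, 0.928, 0.699 and 1.13 CPM in WT mice on SC-435, 27.3, 32.3, 36.7 and 19.1 CPM in KO mice on chow and 3.94, 2.12, 3.17 and 1.6 CPM in KO mice on SC-435. Each genotype fell without overlap, and KO mice were above WT mice on each diet. It fell by 3.42 ± 0.28 in KO (adjusted p = 6.2e-06) and by 2.95 ± 0.29 in WT mice (adjusted p = 1.5e-04), with an interval of the interaction from -1.3 to 0.36. Cish, an inhibitor of cytokine signalling through STAT5, fell by 2.98 ± 0.44 in KO (adjusted p = 3.3e-04) and 2.45 ± 0.43 in WT mice (adjusted p = 0.0054). Slc41a2, a magnesium transporter, fell by 2.58 ± 0.33 in KO (adjusted p = 1.6e-04) and 2.49 ± 0.34 in WT mice (adjusted p = 0.0012). Rad51b and Paxx, which serve DNA repair, and the kinase Wnk4 completed the 6 largest, with KO responses of -3.56, -1.72 and -1.79 and WT responses of -2.39, -1.44 and -1.63.

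Of 21 genes of endoplasmic reticulum and oxidative stress, 1 was a common fall (Hspa5) and 1 a common rise (Asns, asparagine synthetase). Over all genes 0.201% were common falls and 0.421% common rises. Hspa5 (ENSMUSG00000026864, chr2:34771970-34777547, plus strand), the chaperone BiP, stood at 1890.0, 1553, 1591 and 922 CPM in WT mice on chow, 840.5, 758, 628 and 536 CPM in WT mice on SC-435, 1945, 1791, 821 and 809 CPM in KO mice on chow and 742, 518, 546 and 538 CPM in KO mice on SC-435. The diets did not overlap in either genotype, although KO chow replicates 3 and 4 lay close to the SC-435 mice. It fell by 1.19 ± 0.28 in KO (adjusted p = 0.0067) and by 1.11 ± 0.28 in WT mice (adjusted p = 0.033), and the interval of the interaction was -0.91 to 0.74. All but 2 of the 34 common falls stayed in the class without KO chow replicate 4, and none of them gained an interaction under 0.05.

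The 16 male mice gave an independent look at the same contrast, on the same diets and genotypes. Of the 256 genes, 250 were tested in males and 237 had the same sign of interaction there (40 of 47 with a higher and 197 of 203 with a lower one), against 63.8% of all genes. The median male interaction was 0.8 over the higher and -1.29 over the lower genes. By list, the male median was 0.83 for cholesterol biosynthesis, -0.995 for macrophage markers and -0.6 for interferon genes, of the same sign as in females. It was of the opposite sign for the cell cycle (-2.59), MHC class II presentation (0.13), T and NK cells (0.29) and B and plasma cells (0.16). The same held for lipid droplet genes (1.68) and endothelial (0.57) and erythroid (3.17) markers. Glucose metabolism (0.27) and bile acid transport (0.14) also differed in sign from females. Few passed in males on their own, where 2 genes were called higher and 13 lower of 16555, and 5 of the female calls were among them. Without male WT chow replicate 1 the male calls numbered 26 higher and 59 lower. A test of the female minus male interaction on 32 libraries called 1 gene of 17530 (0.0057%), and 1298 had an unadjusted p under 0.05. That gene was Fam19a2, whose male interaction was -0.0035. Without male KO chow replicate 2 it just missed the threshold at a like size (4.73, adjusted p = 0.05368). For the other genes the test does not show that the sexes are alike.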

How the data were processed

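Poly-A RNA of whole liver was sequenced, 1 library per mouse. The authors deposited 1 table with raw counts per gene for all 32 mice. Per the labels, the submitters' processing notes name mm10, HISAT2 2.0.5, featureCounts 1.5.0-p3, DESeq2 1.20.0 and GATK 4.1.1.0, and whether strand was used in counting is not given in the sources used here, so overlapping and antisense genes could not be separated. The 32 FPKM columns and the fold changes and p-values of the authors' own comparisons were not used.

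The interaction was fitted with edgeR 4.0.16 (R 4.3.3, filterByExpr, TMM, glmQLFit, glmQLFTest, 2-sided) on the 16 female libraries with 1 mean per group, with Benjamini-Hochberg adjustment over all genes tested. Intervals are 95%. Nothing in the labels says which mice shared a litter or cage, so p-values measure the spread between these mice. The sex difference used all 32 libraries. No pair of libraries of a group matched within counting noise.

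Named genes had to be protein coding and to average 50 or more counts per library: the 8 largest interactions in each direction and the 6 largest common rises and falls without overlap of the diets, up to 4 each of WT-only and opposite responses, genes the study names and up to 3 per gene list. Other names are marked as such or count the members of a class. A few results are not reported here. The contrast, genes and the 20 pathway and 10 cell type lists were chosen with earlier results of these data known. Alternatives were other scalings, filters and fits, including limma 3.58.1 (voom) and DESeq2 1.42.0, a replicate block and each mouse left out. The fits were tested on simulated data.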

Additional observations from a re-analysis of the deposited data

Results flagged for a closer look

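Over the 504 groups of 4 mice formed by the 126 named genes, 32 (6.35%) held a mouse whose gap to its nearest neighbour was large against the range of the group, where chance gives about 1 in 20. The values below are that gap as a share of the range.

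KO chow replicate 4 was the mouse concerned in several lipid genes. It was high in Lss (0.878), Acat2 (0.861), Hsd17b7 (0.835), Stard4 (0.838), Gpam (0.871), Fasn (0.88), Hao2 (0.844) and Mup21 (0.902), and low in Abcb4 (0.96). KO SC-435 replicate 4 was low in Cpe (0.886), Acat2 (0.925), Bdh1 (0.867) and Apoa2 (0.864), and high in Oas1g (0.961), H2-DMb1 (0.88), Nfil3 (0.89), Csf3r (0.882) and Cfd (1), the last at 0.0939 CPM with the others at 0. KO chow replicate 2 was high in Mmp12 (0.945), KO chow replicate 1 in Cd79a (0.904) and KO SC-435 replicate 2 in Nr1h4 (0.92).

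Among WT mice, SC-435 replicate 2 was high in Irf7 (0.864), Cfd (0.99), Hba-a1 (0.889) and Hbb-bt (0.843), and SC-435 replicate 3 in S100a8 (0.928). On chow, replicate 1 was high in Ccl2 (0.88), H2-DMb1 (0.837) and Ighm (0.883), replicate 2 low in Abcg1 (0.934), replicate 3 high in Hadha (0.882) and replicate 4 low in Cyp2c54 (0.893).

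The interaction of Fam19a2 differed between the sexes by 4.98 on the log2 scale (female minus male), the only gene to pass in the test of that difference.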

How the results depend on the processing

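No named gene with a called interaction changed its sign under any alternative. Among named genes that were not called, those of Csad, Cish, Slc41a2, Wnk4, Krt19, Hba-a1, Hbb-bt and Alas2 crossed 0 in some. Calls were also gained, as for Hsd17b7, Slc10a1 and Col1a1 by voom and without KO chow replicate 4. Calls for a higher and a lower interaction, common rises and common falls numbered 56, 421, 62 and 36 with library size scaling, 132, 359, 77 and 40 with DESeq2, 262, 523, 91 and 40 with voom and quality weights, 83, 209, 69 and 37 with no filter on low counts, 42, 193, 63 and 27 with a robust fit, and 145, 300, 215 and 127 with no limit on fold. A mean of at least 50 counts gave 47, 198, 50 and 27, DESeq2 size factors 50, 188, 71 and 34. Library size scaling moved the median interaction of all genes to -0.175. Common responses taken from 8 libraries of each genotype, an alternative added after the data were seen, numbered 67 rises and 26 falls. With the replicate block the counts were 32, 105, 53 and 31. The 24 pairs of mice with the same number correlated from -0.194 to 0.17 in their deviations, and the 72 pairs with different numbers from -0.286 to 0.293. In all groups alike, 1 of 16 libraries correlated best with its own number. No pairing by number was seen, which does not exclude one.

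Leaving out 1 mouse gave 10 to 309 higher and 41 to 498 lower interactions, 37 to 76 common rises and 15 to 39 common falls. Of the 42 named interaction calls, 12 held in all 16 of these fits. Without KO SC-435 replicate 2, 29 were lost, without KO SC-435 replicate 1, 27, without KO chow replicate 2, 26, and without KO chow replicate 4, 0. Voom lost 8 (Sult2a1, Sult2a3, Sult2a5, Gpnmb, Cpe, Ly6d, Mmp12 and Mmp13), the robust fit 13 (among them Sult2a3, Gpnmb, Cpe, Lcn2, Fdft1 and Gpam), and the replicate block 18, among them all 4 Sult2a genes, Lcn2, Fdft1, Acat2, Cyp46a1 and Csf3r. The sex difference was called for 31 genes by DESeq2, for 2 with the replicate block, and for 0 to 9 without 1 mouse, with 0 without male KO chow replicate 2 and 9 without female KO chow replicate 4. The cause of these changes was not tested. With 4 mice a group the median half-width of the interaction's interval was 0.47, which limits what a missed threshold shows.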

Other observations

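Further gene groups were described by the same counts, against 0.314% of all genes called higher and 1.2% lower. Of 20 cell cycle genes, 19 had an interaction above 0 (median 0.87), and Mcm5, a subunit of the replication helicase, was called at 1.58 ± 0.4 (adjusted p = 0.046), a call kept by 2 of the 16 fits without 1 mouse. In males the median of these genes was -2.59. Of 22 genes of fatty acid oxidation and ketogenesis, 19 lay above 0 (median 0.3), and Cyp4a14, a fatty acid hydroxylase driven by PPARα, was called at 1.43 ± 0.37 (adjusted p = 0.04965). The call of Cyp4a14 held in 2 of the 16 fits without 1 mouse. All 8 genes of MHC class II presentation lay below 0 (median -0.89), and 7 of them fell in KO mice, against 3.97% of all genes. Ctss, the protease that trims the invariant chain, was called at -1.31 ± 0.28 (adjusted p = 0.027), and 7 of the 16 fits without 1 mouse kept it. Without KO chow replicate 4, 4 of the 8 were called lower, as were 498 of all genes. None was called without WT chow replicate 3, KO chow replicate 2 or 3, or WT SC-435 replicate 1. The call of Ctss was also lost without WT SC-435 replicate 2 or 3 or KO SC-435 replicate 1, 2 or 3. The male median was 0.13. Bile acid receptor signalling (8 genes, median 0.31), circadian clock (17, median 0.38), glucose metabolism (12, median -0.077), stress of the endoplasmic reticulum and oxidative stress (21, median -0.024) and lipid droplet genes (14, median -0.19) held no interaction call, against 0.314% of all genes called higher and 1.2% lower. Atf5 of the stress list had an interaction within the limit on fold, at 0.59 to 0.75 in the 16 fits without 1 mouse. Its adjusted p was under 0.05 in all 16.

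Among markers of other cells, Csf3r, the receptor of granulocyte colony-stimulating factor, was called lower at -1.23 ± 0.28 (adjusted p = 0.031) of 5 neutrophil genes tested (median -1.23). Over all genes 1.2% were called lower and 0.314% higher. The 13 neutrophil markers of the list summed to 6.49 to 14.3 CPM in KO mice on chow and 3.12 to 5.14 CPM on SC-435, where 1 marker was at 0. Il7r, the interleukin-7 receptor, was called lower at -2.62 ± 0.67 (adjusted p = 0.048) of 17 T and NK cell genes. Of the 16 fits without 1 mouse, 3 kept the call of Il7r and 7 that of Csf3r. None of 12 B and plasma cell, 12 endothelial, 5 erythroid, 2 pancreatic acinar and 16 hepatocyte genes was called. Among the hepatocyte genes, 1, Alb, had a positive interaction with an adjusted p under 0.05 but within the limit on fold. It stayed under 0.05 in 14 of the 16 fits without 1 mouse. The part of these cells in the results was not tested.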
